A study of Mus musculus with 12 samples.

Results

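Genotype differences were examined in leukemic blasts that had been sorted from the bone marrow (BM), comparing blasts that lack STAT3β (Δβ) with wild-type (WT) blasts. All genes with a mean of at least 10 normalized counts over the 6 BM libraries were taken, which left 11447 of the 24454 genes in the deposited table. Of these, 11190 reached that mean in both genotypes, 132 in WT alone and 125 in Δβ alone. The blasts of both genotypes were fetal liver cells transduced with a retrovirus that carries the MLL-AF9 fusion oncogene and the Venus reporter, from WT or STAT3β-deficient donor mice. They grew in young adult male recipients of the NSG strain (in full NOD.Cg-Prkdc scid Il2rg tm1Wjl/SzJ), which have no mature T, B or NK cells of their own, and were sorted as Venus+ cells from diseased animals. The recipients' age at that point is not given in the sources used here. RNA was sequenced from 3 WT and 3 Δβ libraries of BM, and from the same numbers of spleen (SP) libraries, which served to estimate the spread and as a second organ. The sources used here do not say whether a library came from 1 animal or 1 transduction, so p-values measure the spread between these libraries, which may be technical.

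STAT3 is made in a full-length form, STAT3α, and a form with a shortened C-terminus, STAT3β, by alternative splicing of 1 transcript. Both bind DNA after phosphorylation by Janus kinases downstream of cytokine receptors such as those for IL-6 and G-CSF. Interferon (IFN) receptors signal through the same family of kinases. The factors they activate, such as the complex that holds STAT2 and IRF9, bind the interferon-stimulated response element (ISRE) or the gamma-activated site (GAS) of IFN-stimulated genes. These genes encode guanylate-binding proteins (GBPs) and immunity-related GTPases that act on intracellular pathogens, the ISG15 conjugation enzymes, sensors of foreign nucleic acid and the machinery of MHC class I antigen presentation.

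Between 9001051 and 11260511 reads per BM library were counted on genes, and 1 read equalled 0.992 to 1.17 normalized counts. The 12 markers of myeloid blasts were all expressed, at a sum of 47098 to 49209 normalized counts in WT and 57919 to 78540 in Δβ. Without Mpo the other 11 summed to 32542 to 44037 in WT and 30289 to 36646 in Δβ, with overlapping groups. Markers of other cells had lower sums than those of blasts but were not evenly spread. The 14 tissue macrophage markers summed to 6447, 7261 and 5015 in WT and to 3713, 3322 and 2498 in Δβ, without overlap. Without Vcam1 the other 13 summed to 1717 to 2105 in WT and 1191 to 2029 in Δβ, with overlapping groups. The 12 T cell markers summed to 22.8, 22.5 and 31.2 in WT and to 521, 24.5 and 54.9 in Δβ, so that Δβ BM 1 stood apart, with Cd8a at 103, 0 and 1.04 in the Δβ libraries. The 10 NK cell markers summed to 212 in Δβ BM 1 and to 28.8 to 47.9 in the other libraries. The 9 eosinophil markers summed to 529, 1718 and 1075 in WT and to 183, 424 and 3542 in Δβ, with Δβ BM 3 the highest. Sex-linked genes also split the libraries otherwise than the genotype did. Xist, the X-inactivation RNA of females, was at 25480, 14503 and 27.2 in WT and 3850, 950 and 10277 in Δβ, and the Y-linked gene Ddx3y was at 0.992, 123 and 1291 in WT and 1179.6, 1154 and 14.5 in Δβ. WT BM 2, Δβ BM 1 and Δβ BM 2 held more than 100 normalized counts of both, and the recipients were male.

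**Figure D1:**
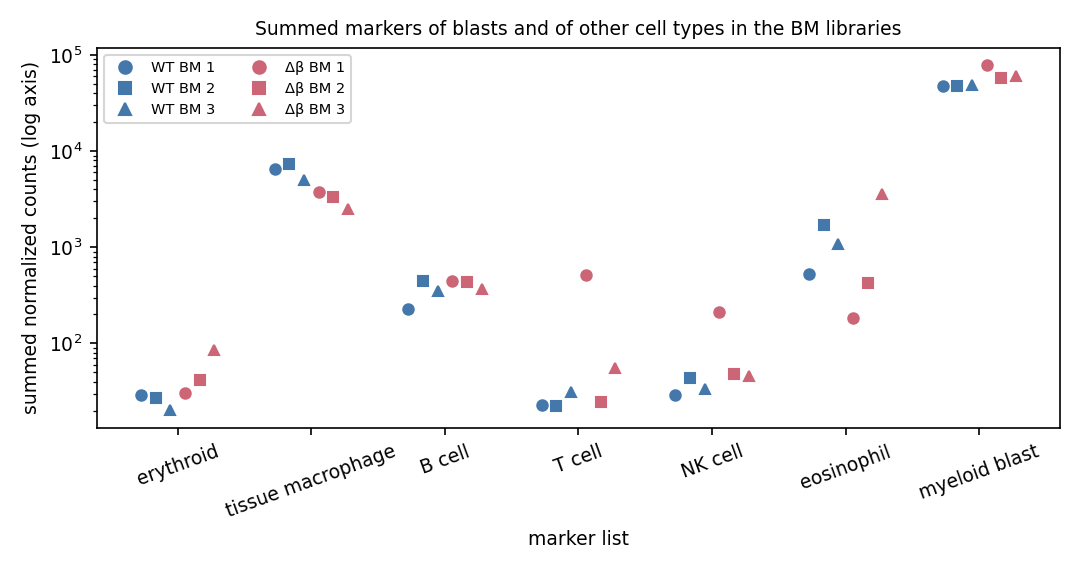
Summed normalized counts (log axis) of marker lists for erythroid cells, tissue macrophages, B cells, T cells, NK cells, eosinophils and myeloid blasts, 1 symbol per BM library, blue for WT and red for Δβ. T cell and NK cell markers stand out in Δβ BM 1 and eosinophil markers in Δβ BM 3, whereas the sum of the blast markers is at least 47098 in every library.

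The first question was which genes differed between Δβ and WT blasts of the BM beyond the spread between libraries. With limma on log2(normalized count + 1) and Benjamini-Hochberg adjustment, 8 of 11447 genes (0.0699%) passed an adjusted p of 0.05, 6 higher and 2 lower in Δβ. These were Cwc22, Ube2l6, Chit1, Ctse, Npm3-ps1 and Wdfy1, which rose, and Rnaset2b and Anks1, which fell. Chit1 and Npm3-ps1 reached the mean of 10 in Δβ alone and Rnaset2b in WT alone. The median log2 fold change of all tested genes was -0.02 and the median absolute log2 fold change 0.13. At an unadjusted p under 0.05, 144 genes (1.26%) were higher and 153 (1.34%) lower. The 3 Δβ libraries were all above the 3 WT libraries in 405 genes (3.54%) and all below in 468 (4.09%). With 3 against 3 libraries the smallest two-sided p of an exact permutation test is 0.1, for which reason that test was not run on single genes. The count of 8 rests on a spread estimated over all 12 libraries. With the 6 BM libraries alone 3 genes were called, Cwc22, Ctse and Tmem180, and with 1 BM library left out of the 12 the count was 1 to 6. It was 1 without Δβ BM 1 or Δβ BM 2, 2 without WT BM 2 and 3 without WT BM 1 or Δβ BM 3, with Cwc22 called each time. DESeq2 called 37 genes, 22 higher and 15 lower, these 8 among them. Gbp2, Gbp4, Gbp5 and Nlrc5, which are IFN-stimulated, were also among the 37. Below, a gene is called where limma over all 12 libraries gave an adjusted p under 0.05, unless another fit is named. In bulk RNA, fewer cells of a type and less RNA per cell cannot be told apart.

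Cwc22, which encodes a splicing factor of the spliceosome, had the smallest p. It was at 412, 527 and 422 normalized counts in WT BM 1, 2 and 3 and at 6313, 6463 and 6717 in the Δβ libraries. The groups were far apart and each of them was tight, with a log2 fold change of 3.85 (SE 0.11, limma adjusted p = 1.1e-08). Ube2l6 encodes UBCH8, the E2 enzyme that passes the ubiquitin-like modifier ISG15 to its substrates. It was the one gene of the lists of IFN-stimulated genes that limma called. Its values were 43.7, 13.5 and 44.3 in WT and 544, 398 and 268 in Δβ. All Δβ libraries were thus above all WT libraries, including Δβ BM 3, and the log2 fold change was 3.65 (SE 0.40, limma adjusted p = 0.00837).

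Chit1 encodes chitotriosidase, a chitinase of phagocytes, and was nearly absent in WT. It was at 16.9, 3.38 and 5.04 in WT and at 171, 257 and 355 in Δβ, which gave the largest fitted rise among the called genes (log2 fold change 5.01, SE 0.60, limma adjusted p = 0.0133). Ctse, the aspartic protease cathepsin E, was at 144, 114 and 141 in WT and 1621, 1448 and 4277 in Δβ. Here Δβ BM 3 was the highest library, and the log2 fold change was 4.02 (SE 0.53, limma adjusted p = 0.0224). Wdfy1, an endosomal adaptor protein, changed less but evenly, from 480.2, 520.5 and 639 in WT to 1093, 944 and 1152 in Δβ (log2 fold change 0.96, SE 0.13, limma adjusted p = 0.0224). Npm3-ps1, a processed pseudogene of Npm3, was at 1.98, 1.13 and 5.04 in WT and 37.0, 43.2 and 31.1 in Δβ (log2 fold change 3.49). Reads of Npm3-ps1 and of its parent gene are hard to tell apart, which makes the call uncertain, while Npm3 itself had a log2 fold change of -0.27 with overlapping groups.

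Rnaset2b, 1 of a pair of nearly identical genes for the lysosomal ribonuclease T2, was expressed in each WT library and all but missing in Δβ. It had 55.6, 50.7 and 45.3 normalized counts in WT and 0, 0 and 2.07 in Δβ, so that no Δβ library reached 3 reads. Against that floor per library it was at least 15.4-fold lower in Δβ (limma adjusted p = 0.00837). Its twin Rnaset2a was listed at 0 in all 6 BM libraries, and how the counting split reads between the copies is not known. Anks1, an ankyrin-repeat adaptor that binds receptor tyrosine kinases, fell from 1696, 1480.3 and 1607 in WT to 848, 891 and 905 in Δβ (log2 fold change -0.85, SE 0.12, limma adjusted p = 0.0224). The 3 Δβ libraries lay close together and the groups did not overlap.

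**Figure D2:**
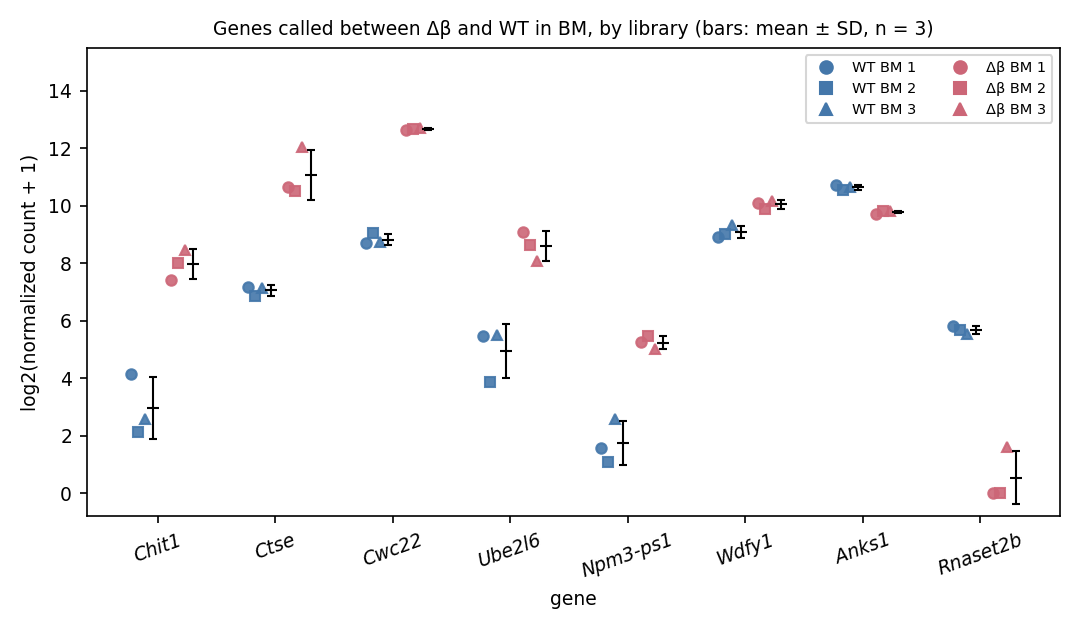
log2(normalized count + 1) of the 8 genes with an adjusted p under 0.05 in each BM library, blue for WT and red for Δβ, with the mean ± SD of 3 libraries beside the symbols. The groups do not overlap in any of the 8 genes, and the spread is smallest for Cwc22 and Anks1.

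Several more genes missed the adjusted threshold although the groups were well apart. Nnt, the mitochondrial transhydrogenase, was at 1027, 634 and 649 in WT and 2077, 1776 and 1708 in Δβ (log2 fold change 1.30, adjusted p = 0.0878 from limma). Mzt1, a part of the gamma-tubulin ring complex, was at 471, 539.6 and 583 in WT and 304, 289 and 307 in Δβ (adjusted p = 0.0589 from limma). Arhgap27os3, a noncoding RNA gene on chromosome 11, was at 38.7, 50.7 and 30.2 in WT and 149, 113 and 131 in Δβ (adjusted p = 0.0786 from limma). In each of these the highest library of one genotype was below the lowest of the other. Chil1, a chitinase-like secreted protein whose gene neighbours Chit1, was at 320.5, 58.6 and 337 in WT and 1896, 1436 and 2857 in Δβ (log2 fold change 3.41, adjusted p = 0.127 from limma). Sh3pxd2a, the podosome scaffold TKS5, was at 77.4, 95.8 and 47.3 in WT and 6.52, 1.17 and 2.07 in Δβ (adjusted p = 0.0786 from limma). Chst1, a sulfotransferase of keratan sulfate, was at 38.7, 38.3 and 29.2 in WT and 4.35, 0 and 1.04 in Δβ (adjusted p = 0.0998 from limma). Both were low in every Δβ library and reached the mean needed for a test in WT alone, which fixed their direction. Tmem180, which RefSeq now names Mfsd13a, was at 904, 856 and 750.3 in WT and 240.3, 300.2 and 251 in Δβ, and Hpse2, a heparanase homologue, at 328, 126 and 236 in WT and 66.3, 29.2 and 28.0 in Δβ (adjusted p = 0.495 and 0.203 from limma).

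In the remaining genes with large differences the libraries of a genotype were uneven. Eya1, a transcriptional cofactor and phosphatase that belongs to the MLL-AF9 program, was at 0.992, 3.38 and 620.4 in WT and 696, 699.7 and 713 in Δβ. WT BM 3 was close to the Δβ level and the other two WT libraries were near 0. Lipo1, a lipase gene, was at 0, 2.25 and 102 in WT and 375, 218 and 128 in Δβ, again with WT BM 3 the highest WT library. Erdr1 at the end of the X chromosome was at 13.9, 0 and 22.2 in WT and 95.7, 209 and 116 in Δβ, and Camk2d, a calcium-dependent kinase, at 0, 37.2 and 3.02 in WT and 255, 52.6 and 52.8 in Δβ. Of the lower genes, the cytochrome P450 gene Cyp2a5 was at 19.8, 173 and 79.6 in WT and 1.09, 7.01 and 3.11 in Δβ, and the cell adhesion gene Sdk1 at 464, 116 and 249.8 in WT and 67.4, 14.0 and 11.4 in Δβ. The folate enzyme Aldh1l1 was at 3.97, 41.7 and 17.1 in WT and 3.26, 0 and 0 in Δβ. Lect1 was high in WT BM 1 alone, with 102, 2.25 and 6.04 in WT and 0, 1.17 and 0 in Δβ, and 1700030C10Rik was at 36.7, 41.7 and 4.03 in WT and 1.09, 0 and 0 in Δβ. None of these 9 passed the adjusted threshold with limma, whereas DESeq2 called Erdr1 and Sdk1. Cyp2a5, Aldh1l1, Lect1 and 1700030C10Rik reached the mean of 10 in WT alone, which fixed their direction.

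The genes with the smallest p lay in groups along the chromosomes. This was noticed after their values were seen and is given as a description, on GRCm38 with RefSeq positions. Among the 50 genes with the smallest p, 5 runs of at least 3 genes had gaps of at most 5 Mb. On chromosome 1, from 131638314 to 135132575, Ctse, Chit1, Chil1 and the phosphatase gene Ptprv were all higher in Δβ. On chromosome 2, Cwc22, Nup35 and Ube2l6 lay between 77881159 and 84810003, and Mybpc3, Slc35c1, Chst1 and 2810002D19Rik between 91118114 and 94411682. On chromosome 19, from 42786541 to 47464612, Hpse2, Tmem180, Sfxn2 and Sh3pxd2a were lower and Bloc1s2 higher. On chromosome 17, 6 genes from Anks1 to H2-T10 lay between 27909304 and 36121444, with 3 higher and 3 lower. The largest fitted rise among these was that of 1700097N02Rik, from 109, 36.0 and 80.6 in WT to 646, 896 and 883 in Δβ, which was not called. The other tested genes between these ends had median absolute log2 fold changes of 0.08 to 0.21, against 0.13 for all tested genes. Between 13.0% and 25% of the tested genes in these spans, the run genes included, had an unadjusted p under 0.05, against 2.59% of all genes. The spans were set by genes with a small p, so a raised share was built in and is no test. The span on chromosome 17 also holds Psmb8, Tapbp and H2-DMa, which are described below with antigen presentation. Within 5 Mb of Stat3 itself, which spans 100886806 to 100939594 on chromosome 11, 12 of 142 tested genes (8.45%) had an unadjusted p under 0.05, against 297 of 11447 (2.59%), and none was called. A list of 24 genes set up as variable among mouse strains had 13 tested members, of which Cwc22, Npm3-ps1, Wdfy1 and Rnaset2b were called, against 0.0699% of all genes. The list was chosen with results of these data known.

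Stat3 itself did not differ detectably. It was at 2714, 2950.4 and 3200.5 in WT and 3228, 2766 and 2349 in Δβ, with overlapping groups and a log2 fold change of -0.10 (SE 0.16). Reads were counted per gene, so the α and β transcripts could not be separated, and the level of Stat3 does not check the deletion. The signalling chain above the IFN-stimulated genes showed no called gene. Of 10 IFN receptor and Janus kinase genes tested, none had an unadjusted p under 0.05, and the median log2 fold change was 0.05. Ifnar1, a chain of the type I IFN receptor, was at 1604, 1381 and 1274 in WT and 1601, 1320.0 and 1155 in Δβ, and Ifngr1 of the IFN-γ receptor at 4904, 6367 and 3900.4 in WT and 5708, 4569 and 4774 in Δβ. Jak1, which serves both receptors, was at 2886, 2927 and 3521 in WT and 3856, 3348 and 2816 in Δβ. The groups overlapped in all 3 genes. Jak3, the kinase of the common γ chain, was at 779, 846 and 763 in WT and 1000.2, 1186 and 831 in Δβ. Of the 19 IFN genes in the list none reached a mean of 10, and Ifng was found in Δβ BM 1 alone, at 10.9 normalized counts. This is the library with the highest sum of T cell markers, whose part in its values was not tested.

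Among the factors that carry the IFN signal, the Δβ libraries split. Irf1, an IFN-γ-induced transcription factor, was at 759, 564 and 728 in WT and 2072, 1499 and 681 in Δβ (log2 fold change 0.92, SE 0.43, not called). Δβ BM 1 and 2 were above every WT library and Δβ BM 3 was within the WT range. Irf7, which drives type I IFN production, was at 206, 143 and 147 in WT and 417, 404 and 105 in Δβ, and Irf9, the DNA-binding partner of STAT2, at 522, 504 and 408 in WT and 1094, 929.8 and 377 in Δβ. In both, Δβ BM 3 was the lowest of the 6 libraries. Stat2 was at 856, 760.4 and 914 in WT and 1028, 1065 and 732 in Δβ, a much smaller difference. None of the 7 STAT genes and none of the 8 tested IRF genes had an unadjusted p under 0.05.

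IFN motifs were looked up in the RefSeq promoter windows of GRCm38.p6, which run from 250 bases before to 50 bases after each start site. The ISRE core was searched as GAAANNGAA and the GAS as TTCNNNGAA, on both strands, and a match of one may share letters with a match of the other. Of 32851 promoters in the table, 8.56% held the ISRE core and 8.30% the GAS. Of the 116 tested genes in 7 lists of IFN-stimulated genes, 90 had a promoter in the table, and 46 of these 90 genes (51.1%) held the ISRE core and 16 (17.8%) the GAS. Of all tested genes with a promoter, 8.66% and 8.31% did. The following stretches are shown as examples with a match from the GBPs, the GTPases, the transcription factors and the immunoproteasome, with motif letters in capitals.
Gbp2, chr3:142620565-142620653, plus strand: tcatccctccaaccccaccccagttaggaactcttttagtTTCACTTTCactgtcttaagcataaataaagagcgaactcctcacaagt
Irgm2, chr11:58214862-58214961, plus strand: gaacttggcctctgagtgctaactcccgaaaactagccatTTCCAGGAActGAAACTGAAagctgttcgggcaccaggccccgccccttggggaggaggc
Irf1, chr11:53769884-53769972, plus strand: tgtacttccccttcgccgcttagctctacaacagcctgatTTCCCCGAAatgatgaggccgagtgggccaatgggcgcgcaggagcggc
Psmb8, chr17:34198058-34198146, plus strand: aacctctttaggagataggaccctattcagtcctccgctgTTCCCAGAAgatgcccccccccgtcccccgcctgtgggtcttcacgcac
Gbp2 held an ISRE core on the reverse strand, Irgm2 a GAS followed by an ISRE core, and Irf1, in 1 of its 2 windows, and Psmb8 a GAS each. Of the 8 called genes 5 had a promoter in the table, among them Ube2l6, Cwc22 and Chit1, and neither motif was found in these windows. Ctse and Gbp4 had no entry. A match is a description of the letters and shows no binding.

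The GBPs had the largest median difference of the IFN lists, with uneven Δβ libraries. Gbp2 was at 10.9, 12.4 and 15.1 normalized counts in WT and 1301, 1349 and 28.0 in Δβ (log2 fold change 4.76, SE 1.37). Δβ BM 1 and 2 were about alike, whereas Δβ BM 3 was just above the WT libraries. The gene was not called by limma but was called by DESeq2, as were Gbp4 and Gbp5. Gbp4 was at 1.98, 1.13 and 0 in WT and 84.8, 84.1 and 2.07 in Δβ, Gbp5 at 11.9, 3.38 and 7.05 in WT and 164, 98.1 and 7.25 in Δβ, and Gbp2b at 0, 0 and 0 in WT and 28.3, 39.7 and 0 in Δβ. Of 11 GBP genes in the list 8 were tested, with a median log2 fold change of 2.83 (2.80 with genes under the floor of 3 reads at their bound). Gbp2b, Gbp4, Gbp5 and Gbp6 reached the mean of 10 in Δβ alone, so that their direction was fixed by the filter. The other 4 had a median of 1.37, against -0.02 for all genes, and all were above 0, with Gbp2 the 1 with an unadjusted p under 0.05. In these 4, Δβ BM 1 and 2 were above every WT library, as they were in 1136 of all 11447 genes (9.92%). Without Δβ BM 3 the median of the 8 was 4.36.

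The immunity-related GTPases, which the GBPs work with on vacuoles of pathogens, had 4 tested members and a median log2 fold change of 1.14. Irgm2 was at 147, 119 and 101 in WT and 543, 482 and 142 in Δβ, Irgm1 at 222, 193 and 114 in WT and 548, 508 and 177 in Δβ, and Igtp at 137, 117 and 125 in WT and 385, 432 and 139.8 in Δβ. Δβ BM 3 was near the WT level in these 3 genes, which were those with an unadjusted p under 0.05 (1.26% of all genes, higher in Δβ). The 6 genes of ISG15 conjugation had a median of 0.77. Besides Ube2l6, the ISG15 ligase gene Herc6 was at 210.4, 216 and 217 in WT and 342, 339 and 254 in Δβ, and Uba7, the E1 enzyme, at 877, 911 and 871 in WT and 1445, 1225 and 851 in Δβ. Usp18, which removes ISG15 and restrains the type I IFN receptor, was at 33.7, 4.51 and 12.1 in WT and 48.9, 51.4 and 11.4 in Δβ. Ube2l6 and Herc6 were the 2 of the 6 genes whose groups did not overlap, with higher values in Δβ, against 3.54% of all genes. Without Δβ BM 3 the median of these 6 was 1.21.

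The 20 tested antiviral genes had a median log2 fold change of 0.29 (0.59 without Δβ BM 3). Of these, 16 were above 0, against 45.2% of all genes. Rsad2 reached the mean of 10 in Δβ alone, which fixed its direction, and 15 of the other 19 were above 0. An unadjusted p under 0.05 was found for 1 (1.26% of all genes, higher in Δβ). This was Eif2ak2, the double-stranded RNA-dependent kinase PKR, at 669.8, 606 and 569 in WT and 821, 806 and 683 in Δβ. Zbp1, a sensor of Z-form nucleic acid, was at 65.5, 42.8 and 68.5 in WT and 466, 528 and 29.0 in Δβ, and Oasl2, an antiviral protein of the OAS family, at 31.8, 18.0 and 8.06 in WT and 88.1, 120.3 and 6.21 in Δβ. In both, Δβ BM 3 was the lowest of all libraries. The 13 tested sensor genes had a median of 0.36, with 9 above 0 and 4 below, whereas 45.2% of all genes were above 0. Mnda reached the mean of 10 in Δβ alone, which fixed its direction, and 8 of the other 12 were above 0. Δβ BM 1 and 2 were above every WT library in 7 of the 13 sensor genes and in 10 of the 20 antiviral genes, against 9.92% of all genes. Tlr7 had the lowest log2 fold change of the sensor genes, -0.97, at 193, 273 and 218 in WT and 284, 144 and 36.3 in Δβ. Ddx58, which encodes RIG-I, was at 177, 104 and 165 in WT and 354, 287 and 142 in Δβ, the 1 sensor gene with an unadjusted p under 0.05, and Ifih1, which encodes MDA5, at 330.4, 252 and 273 in WT and 595, 431 and 232 in Δβ. Of 47 further IFN-stimulated genes, 37 had a log2 fold change above 0, against 45.2% of all genes. The median was 0.17 (0.45 without Δβ BM 3), and 6 passed the unadjusted threshold, in each case with higher values in Δβ (1.26% of all genes). Ddx60, a helicase cofactor of RIG-I, was at 30.8, 68.7 and 78.6 in WT and 269.6, 153 and 81.8 in Δβ, and Sp110, a nuclear body protein, at 673, 979 and 720.1 in WT and 1008, 1119 and 1025 in Δβ. The groups did not overlap in these 2 genes nor in Ly6a. Ly6a and Rtp4 of this list reached the mean of 10 in Δβ alone, which fixed their direction. Of the other 45 genes, 35 were above 0 and 5 were higher with an unadjusted p under 0.05. Ly6a, which encodes SCA-1, was at 2.98, 2.25 and 8.06 in WT and 39.1, 23.4 and 12.4 in Δβ, and Lgals3bp, a secreted glycoprotein, at 31.8, 76.6 and 28.2 in WT and 185, 171 and 51.8 in Δβ. Serpina3f, a serine protease inhibitor outside the lists, was at 0, 0 and 1.01 in WT and 94.6, 67.8 and 4.14 in Δβ, so that all WT libraries were under 3 reads. It reached the mean of 10 in Δβ alone, which fixed its direction.

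In the MHC class I presentation list all 18 tested genes had a log2 fold change above 0, against 45.2% of all genes. Their median was 0.58. Of these, 11 had an unadjusted p under 0.05 (1.26% of all genes, higher in Δβ). In 8 all Δβ libraries were above all WT libraries (3.54% of all genes did so). None was called by limma, whereas DESeq2 called Nlrc5. Nlrc5, the transactivator of class I genes, was at 21.8, 21.4 and 30.2 in WT and 867, 647 and 43.5 in Δβ (log2 fold change 3.54, SE 1.01). Δβ BM 3 was above the WT libraries by a small margin only. Psmb8, a subunit of the immunoproteasome, was at 1829.7, 1886 and 1860.1 in WT and 2415, 3419 and 2394 in Δβ, and here Δβ BM 3 was close to Δβ BM 1. Tapbp, which encodes tapasin and loads peptides, was at 2192, 1928 and 1905 in WT and 2749.6, 2936 and 2349 in Δβ, and its relative Tapbpl at 447, 469 and 448 in WT and 545, 841 and 665 in Δβ. MHC class II genes, with 10 tested, had a median of 0.17 and of 0.65 without Δβ BM 3, and H2-DMa, a peptide editor of class II, was at 779.9, 834 and 669.7 in WT and 1289, 1243 and 905 in Δβ.

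**Figure D3:**
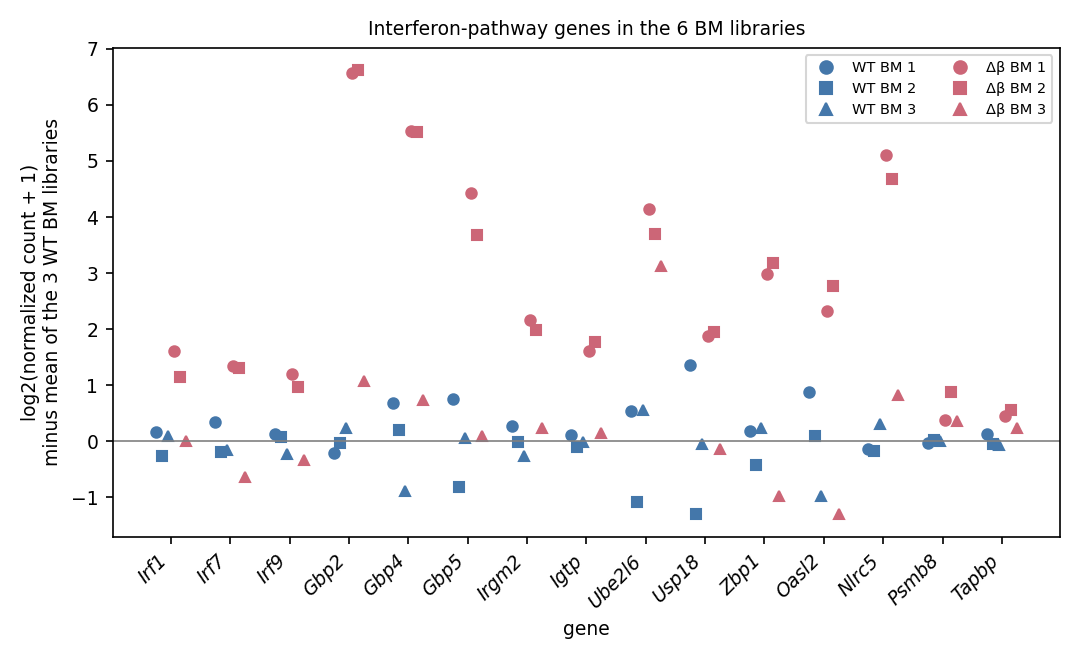
log2(normalized count + 1) of 15 genes of the IFN pathway in each BM library, less the mean of the 3 WT BM libraries of that gene, blue for WT and red for Δβ. Δβ BM 1 and 2 (circle and square) lie above all WT libraries in each of these genes, whereas Δβ BM 3 (triangle) lies far above WT in Ube2l6, a little above in Gbp2 and Nlrc5, and close to or below the WT libraries in most others. The 15 genes are a selection. Over the whole lists Δβ BM 1 and 2 were above all WT libraries in 10 of 20 antiviral and 7 of 13 sensor genes, against 9.92% of all genes.

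Over the 7 lists of IFN-stimulated genes, 98 of 116 tested genes had a log2 fold change above 0, against 45.2% of all genes. An unadjusted p under 0.05 was found for 28 of the 116, each of them higher in Δβ, against 1.26% of all genes. Of the 116, 8 reached the mean of 10 in Δβ alone, which fixed their direction. Among the other 108, 90 had a log2 fold change above 0 and 24 were higher with an unadjusted p under 0.05. Δβ BM 1 and 2 were above every WT library in 81 of all 116 (69.8%, against 9.92% of all genes) and in 73 of the 108. In 61 of the 81 Δβ BM 3 was not above every WT library, against 731 of the 1136 such genes among all tested. Without Δβ BM 3 the number higher at an unadjusted p under 0.05 was 56 of 116, against 2.07% of all genes, and Ube2l6 was still the only one called. Within the BM libraries alone and without Δβ BM 3, 9 of the 116 were called by limma, among 15 genes called in all. They were Gbp2, Gbp7, Nlrc5, Tap1, Psmb9, H2-K1, Zbp1, Irgm2 and Igtp. This setting within BM alone was added after the data were seen. Δβ BM 3 was the lowest Δβ library in 98 of the 116 (84.5%, against 34.9% of all genes). Leaving it out thus favours higher counts, which are no test of a difference. These lists were chosen with results of these data known, so the counts are no independent evidence of a direction. Δβ BM 3 also differed from Δβ BM 1 and 2 in Xist, Ddx3y and the eosinophil markers, whose part in this was not tested. T cell markers summed to 521 in Δβ BM 1 and to 24.5 in Δβ BM 2, against 22.5 to 31.2 in WT, and their part in the values of these lists was not tested.

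**Figure D4:**
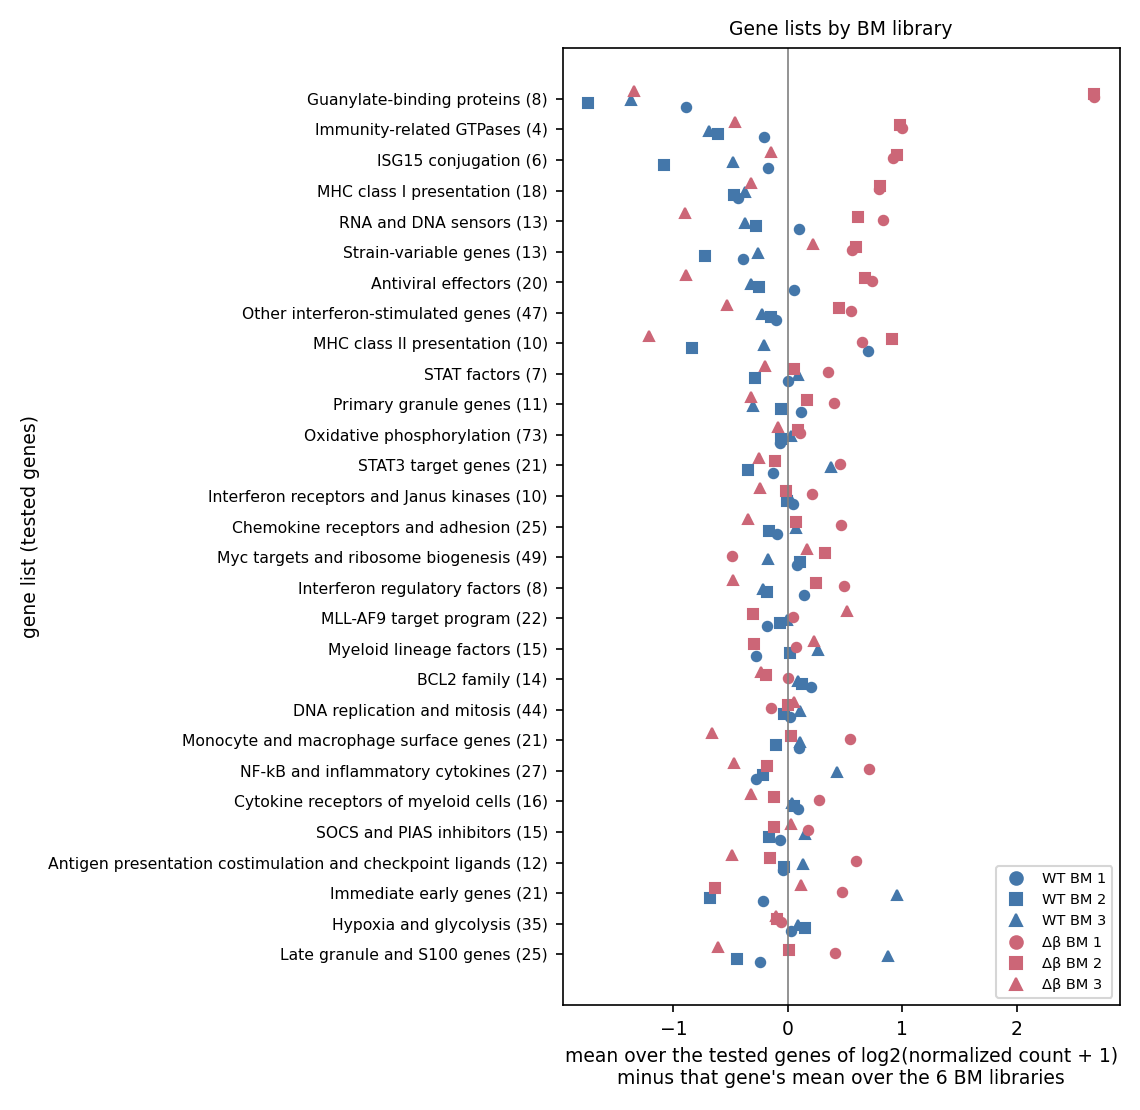
Mean over the tested genes of each list of the log2 value less that gene's mean over the 6 BM libraries, 1 symbol per library, blue for WT and red for Δβ, with the number of tested genes in brackets. Lists are ordered by their median log2 fold change. In the GBP, GTPase, ISG15 and MHC class I lists Δβ BM 1 and 2 stand clear of the other 4 libraries, whereas from the STAT factors down the genotypes are mixed in most lists.

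STAT3-dependent genes and inhibitors of the pathway showed no called gene. Of 21 tested STAT3 target genes 12 had a log2 fold change above 0, against 45.2% of all genes. The median of the 21 was 0.06 and none had an unadjusted p under 0.05. The kinase gene Pim1 was at 276, 275 and 470.3 in WT and 784, 463 and 336 in Δβ, and Junb, an AP-1 factor, at 1712, 1644 and 2835 in WT and 1532, 1179.8 and 1661 in Δβ. Socs3, the feedback inhibitor of STAT3 signalling, was at 32.7, 24.8 and 150.1 in WT and 137, 71.3 and 79.8 in Δβ, and Socs1, which restrains IFN signalling, at 55.6, 59.7 and 66.5 in WT and 98.9, 50.2 and 50.8 in Δβ. WT BM 3 was the highest library for Junb and for Socs3. Of 16 tested cytokine receptor genes none had an unadjusted p under 0.05. Il6ra was at 2370.5, 2017 and 2014 in WT and 2043, 1517 and 1179.8 in Δβ, Csf3r, the G-CSF receptor, at 1727, 1283 and 1819 in WT and 2224, 1550.1 and 1103 in Δβ, and Kit, the stem cell factor receptor, at 802, 1063 and 842 in WT and 759, 879.6 and 1789.9 in Δβ.

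Genes of the myeloid program held no called gene except Chit1, which is in the list of late granule and S100 genes. Among 22 tested genes of the MLL-AF9 program the median log2 fold change was 0.00, and Mef2c, a factor of myeloid progenitors, was at 3101, 1676 and 2068 in WT and 4099.9, 3370.0 and 3229.7 in Δβ, without overlap and not called. Mpo, the myeloperoxidase of primary granules, was at 14555, 8288 and 5172 in WT and 41895, 27629.6 and 24214 in Δβ. The groups did not overlap, with a log2 fold change of 1.83 (SE 0.69), but the gene was not called. The 11 tested primary granule genes, Mpo among them, had a median of 0.08. Late granule and S100 genes had a median of -0.40 over 25 tested genes, 20 of them below 0, whereas 45.2% of all genes were above 0. Without Δβ BM 3 that median was 0.03, and WT BM 3 had the highest mean of that list. Cebpa, a factor of granulocyte formation, was at 1231, 1502 and 1224 in WT and 1129.6, 974 and 867 in Δβ. Klf4, which acts in monocytes, was at 862, 840.4 and 1194 in WT and 917, 407 and 357 in Δβ. Itgam, which encodes CD11b, was at 10019, 12675 and 16687 in WT and 12778, 10652 and 10448 in Δβ, with overlapping groups. Cited4, a transcriptional coactivator, was at 0, 0 and 0 in WT and 1.09, 0 and 7.25 in Δβ, below the mean needed for a test.

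Vcam1, the ligand of the integrin VLA-4, was at 4730.0, 5511 and 2910.5 in WT and 1684, 2131 and 1244 in Δβ, lower in all Δβ libraries (log2 fold change -1.36, SE 0.40, not called). Vcam1 is also a marker of tissue macrophages, and the 13 other markers of that list summed to 1717 to 2105 in WT and 1191 to 2029 in Δβ, with overlapping groups. Cxcr3, a chemokine receptor of T and NK cells, was at 1.98, 1.13 and 3.02 in WT and 42.4, 7.01 and 6.21 in Δβ, with Δβ BM 1 the highest library as it was for T cell markers. Cxcr3 reached the mean of 10 in Δβ alone, which fixed its direction. The inflammatory cytokine gene Tnf was at 373, 576 and 635 in WT and 409, 224 and 292 in Δβ, with overlapping groups. Bcl2a1b, a survival gene with close copies, was at 79.4, 46.2 and 35.2 in WT and 30.4, 7.01 and 6.21 in Δβ and is uncertain, since its reads may be shared with them. Median log2 fold changes were -0.05 over 27 genes of NF-kB and inflammatory cytokines, -0.14 over 21 immediate early genes, -0.03 over 21 surface genes of monocytes and macrophages and -0.03 over 14 BCL2 family genes, with no gene called in these lists. Without Δβ BM 3 the first of these medians was 0.14 and that of the surface genes 0.14, so that both changed sign.

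Of 73 tested genes of oxidative phosphorylation, 57 had a log2 fold change above 0, against 45.2% of all genes. The median of the 73 was 0.07, against -0.02 for all genes. In 9 all Δβ libraries were above all WT libraries (3.54% of all genes), and none had an unadjusted p under 0.05. Sdhc, of complex II, was at 1093, 1090.5 and 1095 in WT and 1311, 1215 and 1239.9 in Δβ, and Uqcrb, of complex III, at 362, 331 and 359.5 in WT and 453, 444 and 403 in Δβ. Ndufb8, of complex I, was at 889, 801 and 892 in WT and 1005, 1103 and 900.1 in Δβ. Of 35 tested genes of hypoxia and glycolysis 29 were below 0, whereas 45.2% of all genes were above 0. The median was -0.16, and Pkm, the pyruvate kinase, was at 11259, 12169 and 14058 in WT and 8306, 11106 and 9864 in Δβ. Of 44 genes of DNA replication and mitosis 6 were lower and 2 higher without overlap, against 4.09% and 3.54% of all genes. Among the lower were Kif23 at 1597, 1669.5 and 2006 in WT and 1413, 1524 and 1507 in Δβ and Foxm1 at 1232, 1274 and 1371 in WT and 1057, 1125 and 1119 in Δβ. The 49 tested Myc targets and ribosome biogenesis genes had a median of 0.02 and none at an unadjusted p under 0.05.

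The design also allows asking whether the genotype difference in BM differed from that in SP. No gene passed an adjusted p of 0.05 for that difference with limma (0 of 11447, 0.0%), whereas 355 had an unadjusted p under 0.05. Without WT SP 3 the number at an unadjusted p under 0.05 was 1916. The edgeR quasi-likelihood test called 0 genes and DESeq2 called 5. The 6 smallest unadjusted p were those of Lars2, Rn45s, Mir6236, Msl3l2, Sgk1 and Rif1. Rn45s, the ribosomal RNA precursor, had a log2 fold change of 0.71 in BM and -2.66 in SP, and Lars2, a mitochondrial tRNA synthetase, of 1.03 and -2.88. Mir6236 followed them with 1.02 and -3.27. In SP, Rn45s took 2.48% and 2.41% of the reads in 2 WT libraries and at most 0.725% in the other 4 SP libraries. Sgk1, a stress-induced kinase, had 0.40 and -2.29, Msl3l2 0.23 and 2.27, and Rif1, a regulator of replication timing, -0.16 and 0.48. In the same way Vcam1 had -1.36 in BM and 0.44 in SP, and Socs3 0.87 and -2.69.

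All 50 genes with the smallest p in BM had the same sign in SP, against 60.6% of all genes. Of the 8 genes called in BM, 6 were also among the 12 genes (0.105%) called in SP, in the same direction. The 2 others, Ube2l6 and Wdfy1, had SP log2 fold changes of 2.34 and 0.70 (limma adjusted p = 0.0673 and 0.0955). In SP, Ube2l6 was at 69.5, 82.7 and 62.9 in WT and 391, 377 and 329.9 in Δβ. Gbp2 repeated its uneven order there, with 20.5, 20.1 and 113 in WT and 1974, 2303 and 267 in Δβ. Libraries of the same number in the Δβ group deviated from their group mean together in both organs, with Pearson's r across genes of 0.673, 0.623 and 0.637. In WT that r was -0.01, -0.03 and -0.24. The sources used here do not say whether such libraries share an animal, and the fit treated all 12 as independent. Genes are not independent replicates, and these r are descriptions.

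**Figure D5:**
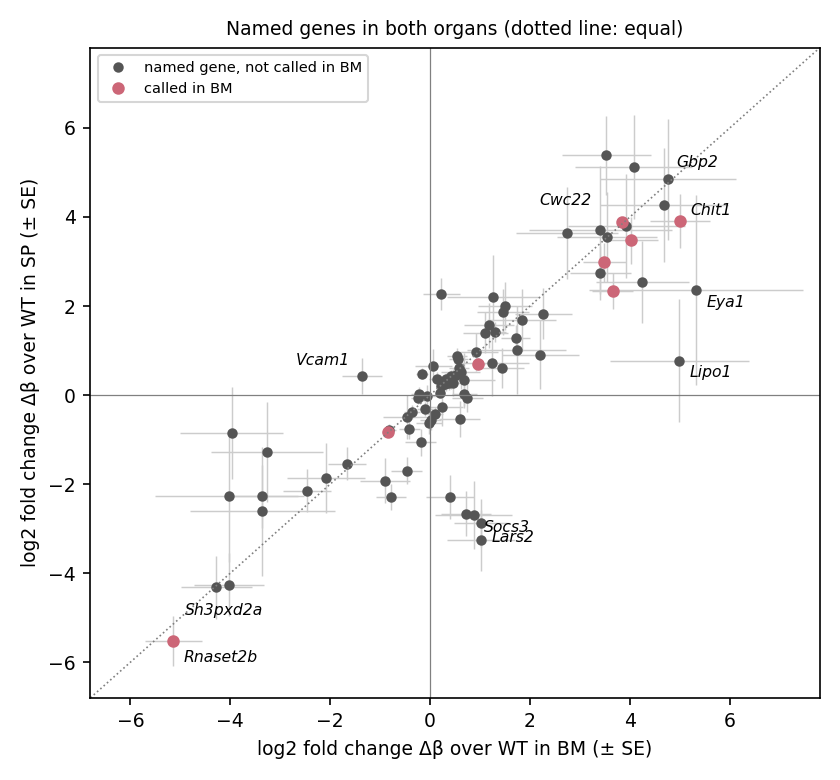
log2 fold change of Δβ over WT in BM (x axis) and in SP (y axis) for 88 genes described in the text, with SE bars, red for the 8 genes called in BM and dark grey for others. Called genes have the same sign in both organs, whereas Lars2 and Socs3 lie above 0 in BM and below 0 in SP, and Vcam1 the reverse.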

How the data were processed

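Leukemic blasts were sorted as Venus+ cells from BM and SP, and poly-A RNA was sequenced from 3 libraries per genotype and organ. Per the labels' processing notes, FastQC, STAR, featureCounts and DESeq2 were used with GRCm38 (mm10), and versions and strand settings are not given in the sources used here. The deposited values are a signal of the kind normalized count, gene counts that the authors divided by a size factor per library. Dividing each library by what 1 read is worth gave whole reads for 100% of values (tolerance 0.001), which were used for depth, edgeR and DESeq2. The header stood 1 place left of its columns, which was allowed for, and 6 columns of other samples were not used.

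Genes with a mean of at least 10 normalized counts over the 6 BM libraries were fitted as log2(normalized count + 1) with limma 3.58.1 in R 4.3.3, with 1 mean per genotype and organ over 12 libraries (8 residual degrees of freedom) and an intensity trend. The log2 fold change is on that scale and understates the change of low genes. P-values were adjusted over 11447 genes by Benjamini-Hochberg. The test was run on simulated data in which all 12 libraries were independent. Same-numbered Δβ libraries deviated together in BM and SP, so that run cannot check the spread shared over the 12. Floors of 3 reads cover counting error only. Genes named in the text were a preset group of pathway and study genes, all called genes, the 8 largest rises and falls among genes with an unadjusted p under 0.05 and groups without overlap, up to 4 members of each list by p, and the 6 smallest p of the organ difference. Markers, sex-linked genes, Npm3 and the genes of chromosomal runs were added after their values were seen, and some genes of this rule are not reported here. Members and lists were chosen with earlier results of these data known. Alternatives were another pseudocount, filter, scaling, edgeR 4.0.16, DESeq2 1.42.0, BM alone, a replicate block and each library left out.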

Additional observations from a re-analysis of the deposited data

How the results depend on the processing

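The count of 8 genes changed in BM was 6 to 9 with another pseudocount, filter or scaling and with edgeR, 5 with limma without the trend, 37 with DESeq2 and 3 with the 6 BM libraries alone. With 1 of the 12 libraries left out it was 1 to 13, the highest without WT SP 1, and within BM alone 1 to 15, the highest without Δβ BM 3, a setting added after the data were seen. Fits with an arm of 2 libraries share the spread of the other groups. The replicate number as a block gave 5 genes, but same-numbered WT and Δβ BM libraries deviated with r = 0.13, -0.10 and -0.09, so the numbers did not pair them. The number of genes whose effect differed between organs was 5 with DESeq2. The cause of these differences was not tested. The small log2 fold changes of 9 genes changed sign. That of Stat3 in bone marrow was -0.21 without Δβ BM 1 to 0.0194 without Δβ BM 3. That of Csf3r in bone marrow was -0.283 without Δβ BM 1 to 0.222 without Δβ BM 3, 0.00454 with quantile normalization, 0.0205 with edgeR and 0.0101 with DESeq2. That of Ifngr1 in bone marrow was -0.162 without WT BM 3 to 0.191 without WT BM 2, -0.00502 with edgeR and -0.0136 with DESeq2. That of Ifnar1 in bone marrow was -0.195 without Δβ BM 1 to 0.0408 without Δβ BM 3. That of Jak1 in bone marrow was -0.013 without Δβ BM 1 to 0.214 without Δβ BM 3. That of Kit in bone marrow was -0.132 without Δβ BM 3 to 0.486 without Δβ BM 1. That of Socs1 in bone marrow was -0.254 without Δβ BM 1 to 0.228 without Δβ BM 2. That of Sgk1 in bone marrow was -0.0881 without Δβ BM 1 to 0.842 without Δβ BM 2. That of Msl3l2 in bone marrow was -0.204 without WT BM 3 to 0.52 without WT BM 2. Of 1998 values for 88 named genes, 1903 kept their direction and side of the threshold. At 3 reads per library, genes under about 3 normalized counts could not be told from absent.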
